A study of Homo sapiens with 12 samples.

Results

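RIPOR3 knockdown was compared with control under low oxygen in 6 of the 12 libraries of the series, 3 from cells with a hairpin against RIPOR3 (shRIPOR3) and 3 from cells with a control hairpin (shControl). The libraries were chosen by hairpin and oxygen level as labelled, and every expressed gene entered the comparison, which left 15648 of 24641 gene symbols. All samples were MDA-MB-231 cells, an established human triple-negative breast cancer line with mesenchymal features, and messenger RNA was sequenced. The 6 hypoxia libraries came from cells held at 1% O2 for 24 hours, and the other 6 libraries held the same hairpins in normoxia, 3 of each. The series concerns RIPOR3 in breast tumour growth and metastasis. Its title links the mRNA of RIPOR3 in hypoxia to m6A, a methyl mark on RNA that METTL3 writes.

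Per the labels, shControl cells have the genotype WT and shRIPOR3 cells the genotype RIPOR3 knockdown, and both are versions of the same line with the same serum and antibiotics. The sample names point to 1 hairpin, sh4, with no second hairpin and no rescue, so effects of lower RIPOR3 and of that hairpin on other transcripts cannot be told apart. The labels leave it unsaid whether the replicates were grown apart. The p-values therefore rest on the spread among these libraries alone, and that spread may be technical.

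RIPOR3 belongs to a small family whose better studied members act on the actin cytoskeleton and cell polarity. Low oxygen itself is read by the hypoxia-inducible factors (HIF): in oxygen their alpha subunits are hydroxylated by EGLN enzymes and handed to VHL for degradation, and without oxygen they pair with ARNT and bind short elements near their target genes. Those targets shift cells to glycolysis, export acid, stiffen collagen and act on blood vessels. In triple-negative breast cancer this programme is a long-studied feature of aggressive tumours.

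The hypoxia libraries held 31781324 to 52526813 counts each, with the 3 shControl libraries at 31781324 to 39171440 and the 3 shRIPOR3 libraries at 35556178 to 52526813. The first principal component of the 6 libraries carried 76.3% of the variance and separated the hairpins. The second, with 6.96%, set shControl replicates 2 and 3 apart in opposite directions (-16.9 and 16.2), while the other 4 libraries lay between -1.67 and 1.11. The number of genes called in hypoxia was 9215 without shControl replicate 2 and 9274 without shControl replicate 3, against 9689 with all libraries. The drop was not particular to them: 8982 were called without shControl replicate 1. Without shRIPOR3 replicates 1, 2 and 3 in turn, 8993, 9299 and 9057 were called. Summed levels of 8 mesenchymal markers (VIM, CD44, AXL, CAV1, ZEB1, MSN, FN1 and S100A4) ran from 9860 to 9990 counts scaled to a common library size (CPM, here by library total alone) in shControl and from 7390 to 7790 in shRIPOR3. Most of this sum was MSN (4870 to 6350 CPM over the 6 libraries), and FN1 ran from 546 to 1460. AXL, in the same sum, was higher in shRIPOR3. Summed levels of 7 luminal or epithelial markers stayed between 10.8 and 13.2 CPM, and the oestrogen receptor gene ESR1 had at most 13 counts in a library. Of 4 leukocyte markers in the table the sum did not exceed 0.629 CPM. The 4 endothelial markers summed to 23.5 to 24.9 CPM in shControl and 13.7 to 14.6 in shRIPOR3, and the 4 fibroblast markers to 7.65 to 8.14 and 3.71 to 4.02, with no marker in the table at 0 over the 6 libraries. Of the endothelial markers CDH5 (2.06 to 8.85 CPM over the 6 libraries) and PECAM1 (1.21 to 5.28) varied most, and KDR stayed between 8.73 and 10.0. The fibroblast sum was nearly all PDGFRB (3.3 to 7.61), and DCN and LUM were near 0. The part of these shifts in the results below was not tested. All samples were of the same cell line, so the marker names do not mean that endothelial cells or fibroblasts were present. In bulk RNA, fewer cells with a transcript and less of it per cell cannot be told apart.

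RIPOR3 itself, on chromosome 20 from 50586108 to 50691528 (GRCh38, minus strand), was scarce and lower in the knockdown. The shControl libraries held 33, 18 and 30 RIPOR3 counts and the shRIPOR3 libraries 9, 3 and 11. Scaled to CPM with TMM factors, which adjust library totals for composition, these were 0.804, 0.542 and 0.837 against 0.167, 0.0813 and 0.201, and the groups did not overlap. The log2 fold change of shRIPOR3 over shControl was -2.19 ± 0.314 (± SE, here and below), with an adjusted p of 1.69e-06 in edgeR's quasi-likelihood test after Benjamini-Hochberg adjustment, the test behind every adjusted p below. The summed counts gave a 4.65-fold difference, with a 95% exact Poisson interval of 2.90 to 7.74 that covers counting error only. RIPOR1, of the same family, stood at 78.9, 70.9 and 71.2 CPM in shControl and 75.8, 67.0 and 76.7 in shRIPOR3, and these values overlapped (log2 -0.01, adjusted p = 0.891). RIPOR2 had too few counts to be tested. METTL3 was 49.5, 51.8 and 48.04 CPM in shControl and 56.8, 58.02 and 58.01 in shRIPOR3, a log2 difference of 0.21 ± 0.0388 (adjusted p = 4.72e-05).

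Differences between the hairpins covered a large part of the measured transcriptome. Of the 15648 genes tested, 9689 (61.9%) passed an adjusted p of 0.05, 4804 of them higher in shRIPOR3 (30.7%) and 4885 lower (31.2%). The median log2 fold change over all genes was -0.00285. Large changes were lopsided toward loss: 768 genes were at least 2-fold lower (4.91%) and 219 at least 2-fold higher (1.40%). Replicate values of the groups did not overlap in 10325 genes (66.0%). These percentages are the background for every list described below. The lists and their members were chosen with earlier results of these data known. Their shares and medians therefore describe the lists and are not an independent test.

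**Figure D1:**
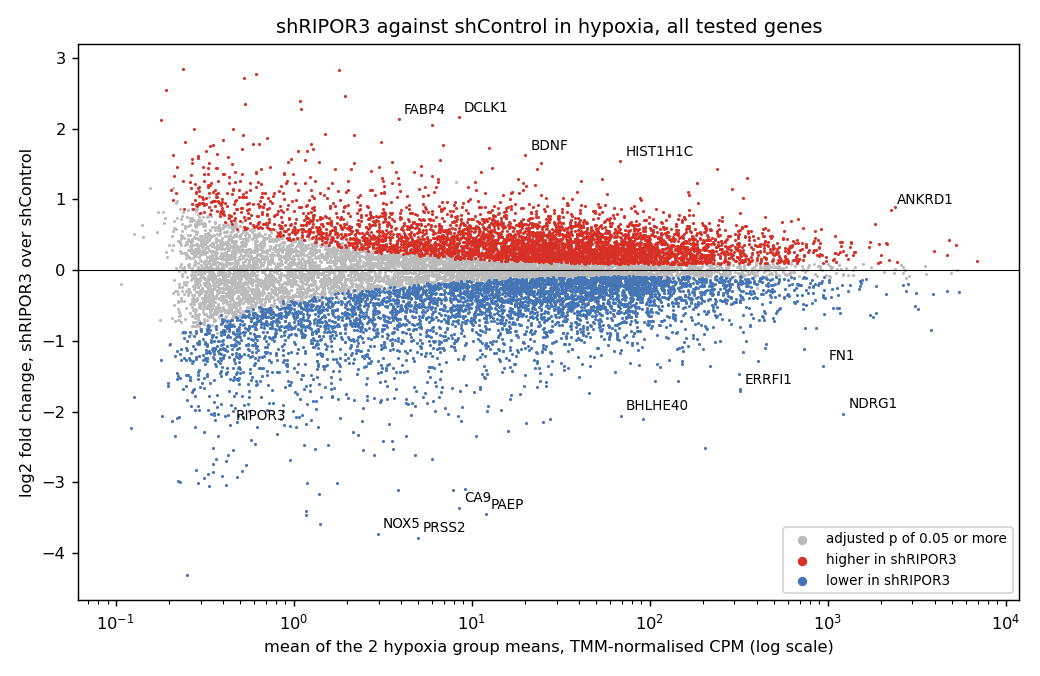
Each point is 1 of the 15648 tested genes, with the mean of the 2 hypoxia group means on the x axis (TMM-normalised CPM, log scale) and the log2 fold change of shRIPOR3 over shControl on the y axis; red and blue mark genes with an adjusted p under 0.05. Losses reach further than gains, and NDRG1, FN1 and ERRFI1 are abundant genes among the large losses.

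Calls differed in direction by abundance and gene type. Among genes with a mean over 100 CPM, 44.6% were higher and 33.3% lower in shRIPOR3, and among genes under 1 CPM 9.21% were higher and 21.5% lower. Of the 768 genes lost at least 2-fold, 321 were under 1 CPM and 30 over 100 CPM. Of the 219 genes gained at least 2-fold, 110 were under 1 CPM and 7 over 100 CPM. By gene type, 33.4% of 12539 protein-coding genes were higher and 33.7% lower, against 17.3% and 24.9% of 1528 long noncoding RNA genes. On chromosome 15 the calls leaned to loss, with 24.7% of 522 genes higher and 37.0% lower, and on chromosome 16 to gain, with 35.0% of 660 higher and 27.0% lower.

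The steepest losses, among genes that reached 5 CPM, included secreted proteins, membrane proteins and hypoxia genes. PRSS2, a trypsinogen, fell from 10.3, 8.85 and 8.73 CPM in the 3 shControl libraries to 0.762, 0.569 and 0.658 in the shRIPOR3 libraries. NOX5, a calcium-activated NADPH oxidase, was at 5.68, 5.51 and 5.36 CPM and 0.409, 0.434 and 0.402 CPM, and PAEP, the secreted lipocalin glycodelin, at 22.97, 20.6 and 22.3 and 1.76, 1.98 and 2.27. The groups lay far apart in each case, with log2 fold changes of -3.78 ± 0.119, -3.73 ± 0.1303 and -3.45 ± 0.0891. The cystatins CST4 (-3.11) and CST1 (-3.10), which inhibit cysteine proteases, followed, with the organic anion transporter SLCO4A1 (-3.10). PRSS2, CST1 and CST4 have near-identical relatives, so reads may have been shared among copies and their values are uncertain.

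Other large losses covered several cell functions. CD82, a tetraspanin known for restraining metastasis, stood at 8.18, 8.76 and 7.78 CPM in shControl and at 1.3, 1.41 and 1.32 CPM in shRIPOR3. DNM1, the membrane-cutting GTPase dynamin 1, stood at 27.04, 26.8 and 26.1 CPM in shControl and at 6.69, 4.58 and 5.03 CPM in shRIPOR3. SORBS2, an adaptor between actin and adhesion sites, stood at 18.1, 17.9 and 17.02 CPM in shControl and at 3.57, 3.28 and 3.53 CPM in shRIPOR3. None of these ranges overlapped, and the log2 fold changes were -2.62 ± 0.102, -2.27 ± 0.0805 and -2.35 ± 0.0834. The leukocyte-specific actin-binding gene LSP1 changed by -2.53, the phospholipase gene PLA2G4D by -2.42, the TNF-family ligand TNFSF15 by -2.35, SMIM14 by -2.18, SPAG4 by -2.13 and the long noncoding RNA AL357833.1 by -2.42.

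The largest gains included kinases, neurotrophins, histones and matrix proteins. DCLK1, a microtubule-associated kinase of neurons and tuft cells, stood at 3.24, 3.19 and 2.82 CPM in shControl and at 14.8, 13.8 and 12.8 CPM in shRIPOR3. FABP4, a fatty acid-binding protein, stood at 1.29, 1.45 and 1.59 CPM in shControl and at 6.001, 6.69 and 6.29 CPM in shRIPOR3. BDNF, a neurotrophin, stood at 8.403, 10.6 and 10.6 CPM in shControl and at 29.8, 29.5 and 31.2 CPM in shRIPOR3. All 3 shRIPOR3 libraries were above all 3 shControl libraries in each gene, with log2 fold changes of 2.16 ± 0.0851, 2.13 ± 0.106 and 1.62 ± 0.0662. Also higher were the keratin-associated gene KRTAP2-3 (2.05), which has near-identical copies, the keratin KRT81 (1.43), the stromelysin MMP3 (1.52), the collagen chain COL5A2 (1.47), the laminin chain LAMA1 (1.35), the osteoprotegerin gene TNFRSF11B (1.45) and the metallothionein MT1E (1.43). KRT81 was among the more abundant of these, at 121, 146 and 123 CPM in shControl and 333, 371 and 349 in shRIPOR3. The rest of the 20 largest gains were ANXA10 (1.53), DUSP23 (1.39), the transcription factor MYT1 (1.39), the serpin SERPINB7 (1.34), the synaptic vesicle gene SYP (1.30), the noncoding RNAs LINC00910 (1.77) and DANCR (1.38), the BMP target ID3 and 2 histone genes, described with their groups.

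**Figure D2:**
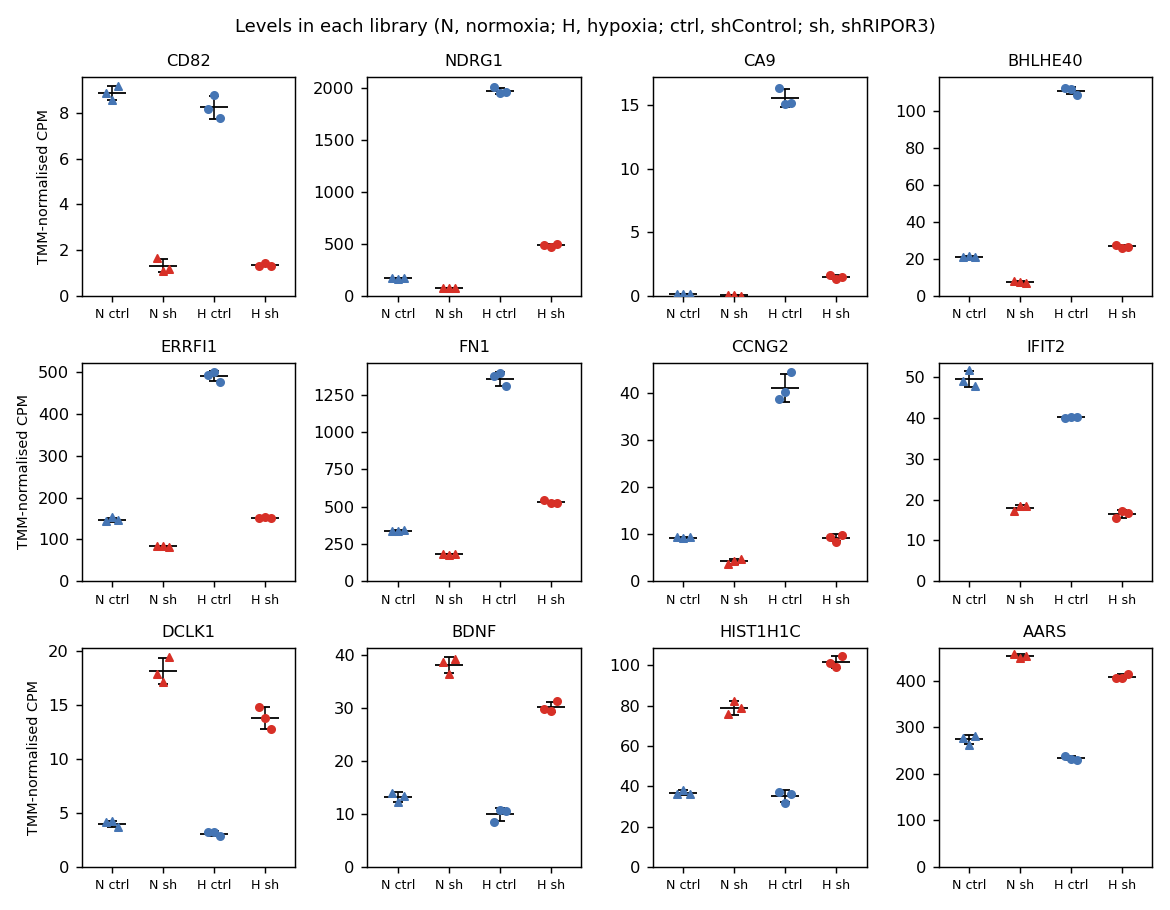
Levels (TMM-normalised CPM, linear axes from 0) of 12 genes in all 12 libraries, with normoxia as triangles, hypoxia as circles, shControl in blue and shRIPOR3 in red; the line is the mean and the bar the SD of 3 libraries. NDRG1, CA9, BHLHE40, ERRFI1, FN1 and CCNG2 stand highest in hypoxia shControl, and CD82 separates by hairpin at both oxygen levels.

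In the oxygen-sensing machinery EPAS1 and the ARNT genes fell, while HIF1A did not pass the test. HIF1A, the main oxygen-regulated subunit, stood at 63.9, 67.7 and 63.2 CPM in shControl and at 59.8, 62.6 and 62.7 CPM in shRIPOR3, and although the ranges did not overlap the difference was small (log2 -0.07 ± 0.0389, adjusted p = 0.109); with all libraries thinned to the smallest total the adjusted p was 0.0239. EPAS1, which encodes HIF-2 alpha, stood at 17.8, 16.7 and 17.5 CPM in shControl and at 8.12, 8.02 and 7.85 CPM in shRIPOR3, a log2 fold change of -1.12 ± 0.0599. ARNT, the shared dimer partner, was lower by a smaller amount (-0.46 ± 0.0416), as was ARNT2 (-0.64 ± 0.0592). The hydroxylase genes EGLN1 (-0.46 ± 0.0475) and EGLN3 (-1.89 ± 0.324) were lower and VHL (0.27 ± 0.0435) and CITED2 (0.73 ± 0.0394), a competitor for the HIF coactivator, were higher. EGLN3 was near the floor, at 0.438, 0.723 and 0.725 CPM in shControl. Of 10 genes of this list, 5 fell and 2 rose.

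Genes that HIF controls were lower almost throughout. Of 43 targets tested, 36 were lower in shRIPOR3, 4 higher and 3 did not pass, with a median log2 fold change of -0.67 and 17 of them at least 2-fold lower. Over all genes 31.2% were lower and the median was -0.00285. NDRG1, a stress gene and one of the most hypoxia-responsive transcripts, stood at 2005, 1945 and 1963 CPM in shControl and at 486, 471 and 493 CPM in shRIPOR3 (log2 -2.03 ± 0.0369). BHLHE40, a transcriptional repressor of the clock family, stood at 112, 112 and 109 CPM in shControl and at 27.4, 25.9 and 26.5 CPM in shRIPOR3 (log2 -2.06 ± 0.0388). CA9, the cell-surface carbonic anhydrase that acidifies the surroundings of hypoxic cells, stood at 16.4, 15.1 and 15.2 CPM in shControl and at 1.65, 1.33 and 1.5 CPM in shRIPOR3 (log2 -3.36 ± 0.0955). The highest shRIPOR3 library was under the lowest shControl library in all 3 genes. RASSF4, a member of the Ras-association family, stood at 31.3, 32.3 and 35.2 CPM in shControl and at 7.58, 7.37 and 7.17 CPM in shRIPOR3 (log2 -2.16 ± 0.0585).

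The targets are described by what they do. In the stress, mitophagy and collagen group 24 of 25 were lower and none higher, with a median of -0.89, and the mitophagy receptor BNIP3 went from 544, 553 and 539 to 325, 349 and 326 CPM (log2 -0.71 ± 0.0413). Among histone demethylases, 5 of 6 were lower, the exception being KDM7A at 0.46 ± 0.0702. The 7 secreted targets split into 3 higher and 3 lower. The vasodilator peptide ADM stood at 73.4, 70.9 and 75.1 CPM in shControl and at 99.6, 95.3 and 105 CPM in shRIPOR3, and the vasoconstrictor EDN1 stood at 37.4, 39.4 and 37.1 CPM in shControl and at 66.03, 65.5 and 66.1 CPM in shRIPOR3. Both rose, by 0.45 ± 0.0397 and 0.80 ± 0.04703, while ANGPTL4, an inhibitor of lipoprotein lipase, fell from 9.74, 10.1 and 11.05 to 1.84, 1.46 and 1.5 CPM (-2.67 ± 0.103).

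The promoters of these genes were searched for the core of the hypoxia response element, because targets moved in both directions. The window ran from 250 bases before to 50 after the gene start in RefSeq (GRCh38.p14), and the letters ACGTG or GCGTG were sought on both strands. A window was found for 33 of the 43 tested targets, and 28 of these (84.8%) held a core, against 48.4% of 27305 windows of all genes. Of the 28 lower targets with a window 23 held a core. The stretches below show cores in capitals, on the gene's own strand from 5′ to 3′, for 5 targets that fell and 2 that rose; a match is a description of letters and not a bound site.
CA9 (lower), chr9:35673880-35673927: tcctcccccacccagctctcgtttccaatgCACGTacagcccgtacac
PLOD2 (lower), chr3:146161311-146161414: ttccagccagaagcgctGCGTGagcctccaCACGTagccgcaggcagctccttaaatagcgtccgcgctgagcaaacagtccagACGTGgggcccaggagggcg
RASSF4 (lower), chr10:44959619-44959668: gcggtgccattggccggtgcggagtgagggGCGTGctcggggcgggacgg
BNIP3 (lower), chr10:131982008-131982096: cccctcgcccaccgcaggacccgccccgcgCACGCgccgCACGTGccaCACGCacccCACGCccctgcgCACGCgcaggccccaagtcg
ANGPTL4 (lower), chr19:8363905-8363940: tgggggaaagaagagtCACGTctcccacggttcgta
ADM (higher), chr11:10304942-10304991: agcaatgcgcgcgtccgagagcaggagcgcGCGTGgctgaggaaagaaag
EDN1 (higher), chr6:12287896-12287991: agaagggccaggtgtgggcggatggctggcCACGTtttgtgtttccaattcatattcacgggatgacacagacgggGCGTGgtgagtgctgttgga
CA9, RASSF4, ANGPTL4 and ADM show 1 match, EDN1 shows 2, PLOD2 shows 3 and BNIP3 shows 6, where a palindromic CACGTG counts once per strand. The letters thus occur in promoters of targets that fell and of targets that rose.

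Most genes of glucose use fell. Of 17 glycolytic enzymes 12 fell and 1 rose, at a median of -0.28, and 7 of 8 genes of uptake and glycogen fell. The glucose transporter SLC2A1 stood at 265, 264 and 258 CPM in shControl and at 141, 139.5 and 141 CPM in shRIPOR3 (log2 -0.90 ± 0.0364). The aldolase ALDOC, an isoform typical of brain, stood at 23.5, 22.6 and 23.96 CPM in shControl and at 5.83, 5.64 and 6.18 CPM in shRIPOR3 (log2 -1.98 ± 0.0717), and the neuron-type enolase ENO2 stood at 95.9, 92.9 and 96.5 CPM in shControl and at 44.01, 43.2 and 43.5 CPM in shRIPOR3 (log2 -1.13 ± 0.0434). PFKFB4, a bifunctional enzyme that sets the pace of glycolysis, stood at 48.8, 46.5 and 48.4 CPM in shControl and at 18.1, 17.3 and 18.5 CPM in shRIPOR3 (log2 -1.41 ± 0.0434). The muscle-type phosphofructokinase PFKM was the glycolytic gene that rose, to 86.1, 84.2 and 84.2 CPM from 58.4, 60.99 and 61.01 (0.50 ± 0.0414). The pentose phosphate branch, which makes ribose and NADPH, had 3 of 7 genes higher and 1 lower, led by the isomerase RPIA (0.72 ± 0.04804), TALDO1 (0.28 ± 0.0372) and TKT (0.19 ± 0.0351).

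Lipid synthesis was lower as a group. Of 41 genes 31 fell and 4 rose (median log2 fold change -0.50), and cholesterol synthesis accounted for 18 of the falls among 21 genes with no rise. HMGCS1, an early enzyme of the mevalonate pathway, stood at 109, 109.6 and 113 CPM in shControl and at 43.8, 44.96 and 44 CPM in shRIPOR3 (log2 -1.32 ± 0.0362). The sterol sensors INSIG1 (-1.36 ± 0.0492) and INSIG2 (-1.15 ± 0.0565), which hold the SREBP precursors in the endoplasmic reticulum, were lower, and SCAP, their escort, was higher (0.41 ± 0.0418). INSIG1 stood at 46.9, 46.8 and 49.5 CPM in shControl and at 18.2, 18.05 and 19.6 CPM in shRIPOR3, so the groups were well apart. The desaturase SCD stood at 433, 445 and 416 CPM in shControl and at 235, 241 and 230.2 CPM in shRIPOR3 (log2 -0.87 ± 0.0369), whereas the fatty acid synthase FASN (0.18 ± 0.0406) and the elongases ELOVL5 (0.19 ± 0.0422) and ELOVL6 (0.22 ± 0.0415) were slightly higher. The letters TCACNCCAC, the sterol response element, were in 1 of 24 promoter windows (4.17%) of the cholesterol and control genes on either strand, against 1.15% of all windows, too few for a comparison.

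Storage and binding of lipid did not move as a group: 5 of 15 genes were higher and 5 lower. G0S2, an inhibitor of triglyceride breakdown, stood at 228, 210.4 and 225 CPM in shControl and at 444, 436 and 459 CPM in shRIPOR3 (log2 1.01 ± 0.0412). FABP6 rose from 0.171, 0.211 and 0.0837 to 1.04, 1.003 and 1.17 CPM, a low level, and ACSL1 by 0.38 ± 0.0452. The droplet coat genes PLIN2 (-0.36 ± 0.0362) and PLIN3 (-0.58 ± 0.0474), the phosphatase LPIN1 (-0.72 ± 0.0506) and the acyl-CoA synthetase ACSL3 (-0.45 ± 0.0378) were lower.

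In EGFR signalling the receptor, 4 of 7 ligands and most feedback inhibitors were lower. EGFR, the epidermal growth factor receptor, stood at 613, 633 and 609.8 CPM in shControl and at 412, 409.7 and 402 CPM in shRIPOR3 (log2 -0.60 ± 0.0357), and AXL, another receptor kinase, rose slightly (0.25 ± 0.0359). ERRFI1 (MIG6), the feedback inhibitor that binds and silences EGFR, stood at 493, 499.5 and 477 CPM in shControl and at 152, 153 and 151 CPM in shRIPOR3, a log2 fold change of -1.69 ± 0.0356. No replicate values overlapped. Of 14 feedback inhibitors 10 were lower and 3 higher, among the latter the ERK phosphatase DUSP7 (0.71 ± 0.0671). No ligand rose, and HBEGF was one of those that fell (124, 121 and 123 against 73.1, 73.8 and 76.3 CPM, log2 -0.72 ± 0.0374). Of 14 transcription factors downstream 6 fell and 2 rose: JUND fell (-1.17 ± 0.0562), and FOSL1 (0.52 ± 0.0405) and EGR1 (0.47 ± 0.0848) rose.

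In the insulin-like growth factor system, where binding proteins hold the ligands outside cells, the binding proteins were lower in 5 of 6 cases. IGFBP3, the most abundant carrier in serum, stood at 178, 184 and 185 CPM in shControl and at 74.4, 75.3 and 76.4 CPM in shRIPOR3 (log2 -1.27 ± 0.0345), and IGFBP6 stood at 17.9, 15.4 and 15.5 CPM in shControl and at 7.19, 7.45 and 8.69 CPM in shRIPOR3 (log2 -1.06 ± 0.0781). IGFBP7 (-0.90 ± 0.0401), IGFBP1 (-0.70 ± 0.0566) and IGFBP4 (-0.58 ± 0.0391) were lower too. The receptor genes IGF1R (-0.62 ± 0.0432) and INSR (-0.76 ± 0.0747) were lower, and the docking proteins went the other way, with IRS2 at 32.1, 32.2 and 32.1 CPM in shControl and 46.3, 46.9 and 49.1 in shRIPOR3 (0.56 ± 0.0491) and IRS1 at 0.26 ± 0.0354.

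TGF-beta and BMP genes moved both ways. The latent TGF-beta binding proteins, which store the ligand in the matrix, were lower: LTBP1 stood at 34.5, 37.1 and 35.01 CPM in shControl and at 12.3, 10.6 and 10.99 CPM in shRIPOR3 (log2 -1.65 ± 0.0582), and LTBP3 stood at 21.6, 20.5 and 22.9 CPM in shControl and at 7.86, 7.99 and 8.08 CPM in shRIPOR3 (log2 -1.44 ± 0.0618). The receptor TGFBR1 (-0.75 ± 0.04096) and its transducer SMAD3 (-0.86 ± 0.0342) were lower, and the BMP transducer SMAD5 was slightly higher (0.22 ± 0.04803). ID proteins, helix-loop-helix inhibitors that BMP signals induce, were higher. ID3 stood at 3.46, 3.25 and 3.46 CPM in shControl and at 10.3, 9.21 and 10.3 CPM in shRIPOR3, ID4 stood at 3.58, 3.07 and 4.49 CPM in shControl and at 8.49, 9.67 and 9.29 CPM in shRIPOR3, and ID1 stood at 9.84, 9.07 and 10.5 CPM in shControl and at 14.6, 13.8 and 15.98 CPM in shRIPOR3. Their log2 fold changes were 1.55 ± 0.0823, 1.29 ± 0.0975 and 0.60 ± 0.0698, and the groups did not overlap. In all 20 of 36 genes fell and 6 rose.

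The extracellular matrix was lower, with exceptions by chain. Of 55 genes 36 fell and 5 rose (median -0.33), and of 11 integrins 8 fell and none rose (median -0.74). Fibronectin, FN1, stood at 1375, 1394 and 1307 CPM in shControl and at 542, 526 and 525 CPM in shRIPOR3 (log2 -1.36 ± 0.0365), and the collagen VI chain COL6A1 stood at 90.6, 93.3 and 95.2 CPM in shControl and at 34.7, 34.8 and 33.1 CPM in shRIPOR3 (log2 -1.45 ± 0.0398). The collagen lysyl hydroxylase PLOD2, which prepares collagen for crosslinking, stood at 213, 222 and 213 CPM in shControl and at 74.5, 71.2 and 72.5 CPM in shRIPOR3 (log2 -1.57 ± 0.0355). COL5A1 fell, with a log2 fold change of -0.99 ± 0.0392, while its partner chain COL5A2 rose (1.47 ± 0.111), from 2.61, 2.95 and 2.79 to 7.78, 7.43 and 7.81 CPM. Thrombospondin 1, THBS1, was higher (200.4, 196 and 193 against 321, 315 and 316 CPM, log2 0.69 ± 0.0334). SPARC (0.24 ± 0.0362) and the lysyl oxidase relative LOXL3 (0.87 ± 0.117) rose too.

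Of 33 proteases and inhibitors 18 fell and 8 rose, and among 13 metalloproteinases 5 rose and 4 fell. The collagenase MMP1, one of the most abundant transcripts of these cells, stood at 1638, 1701 and 1696 CPM in shControl and at 3206, 3148 and 3020 CPM in shRIPOR3 (log2 0.90 ± 0.0375), and the stromelysin MMP3 stood at 13.6, 12.5 and 11.97 CPM in shControl and at 37.4, 36.3 and 35.8 CPM in shRIPOR3 (log2 1.52 ± 0.0626). All 4 tissue inhibitors of metalloproteinases were lower, TIMP3 from 100.5, 101 and 96.5 to 49.4, 49.6 and 48.7 CPM (log2 -1.01 ± 0.0358). In the plasminogen system the activator PLAT stood at 155, 164 and 160.2 CPM in shControl and at 53.97, 54.1 and 53.04 CPM in shRIPOR3 (log2 -1.57 ± 0.0366), and the inhibitor SERPINB2 stood at 34.95, 36.7 and 39.4 CPM in shControl and at 77.1, 81.1 and 76.9 CPM in shRIPOR3 (log2 1.08 ± 0.0469). All 5 serine proteases tested were lower, PRSS2 most, and of 5 cystatins tested 3 were lower and none higher.

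Mesenchymal genes were lower, with a mixed picture among the factors that control them. VIM, the mesenchymal filament, stood at 759.8, 757 and 738 CPM in shControl and at 536, 549.9 and 564 CPM in shRIPOR3 (log2 -0.45 ± 0.0361), S100A4 stood at 18.97, 16.1 and 15.7 CPM in shControl and at 5.54, 5.26 and 5.103 CPM in shRIPOR3 (log2 -1.68 ± 0.0761), and the repressor of epithelial genes ZEB1 stood at 184, 204 and 197 CPM in shControl and at 136, 144 and 132 CPM in shRIPOR3 (log2 -0.51 ± 0.04195). SNAI2, another such repressor, was higher (0.46 ± 0.0363), and so were the epithelial keratins KRT7 (0.45 ± 0.0461) and KRT18 (0.17 ± 0.0395). Of 17 epithelial genes, however, 6 fell, 2 of them at least 2-fold, and 4 rose. Of 27 genes of the epithelial-mesenchymal list 14 fell and 5 rose.

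Genes of the contractile cytoskeleton fell and YAP targets mostly rose. Of 15 targets of the serum response factor 11 fell and 2 rose (median -0.45): tropomyosin TPM2 stood at 52.6, 56.4 and 63.1 CPM in shControl and at 27.2, 30.7 and 26.99 CPM in shRIPOR3 (log2 -1.02 ± 0.0571), and TAGLN stood at 27.5, 28.1 and 28.7 CPM in shControl and at 14.5, 13.8 and 14.6 CPM in shRIPOR3 (log2 -0.97 ± 0.0592), while calponin CNN2 rose (0.57 ± 0.03604). Among 13 genes of the YAP and TAZ group 9 rose and 3 fell. ANKRD1, a standard YAP target, stood at 1591, 1653 and 1639.6 CPM in shControl and at 2942, 2924 and 2954 CPM in shRIPOR3 (log2 0.85 ± 0.0372), AMOTL2 rose by 0.62 ± 0.0351 and CTGF (CCN2) by 0.39 ± 0.0352. WWTR1, which encodes TAZ itself, stood at 84.2, 89.4 and 86.7 CPM in shControl and at 43.9, 44.2 and 44.4 CPM in shRIPOR3 (log2 -0.97 ± 0.0375), and CRIM1 was lower (-0.53 ± 0.0362).

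Interferon-stimulated genes, the antiviral genes that interferons switch on, leaned to loss: 13 of 25 fell and 1 rose, around a median of -0.34. IFIT2 stood at 40.02, 40.2 and 40.2 CPM in shControl and at 15.4, 17.2 and 16.7 CPM in shRIPOR3 (log2 -1.29 ± 0.0476), IFIT3 stood at 67.8, 65.1 and 72.2 CPM in shControl and at 34.6, 39.9 and 38.7 CPM in shRIPOR3 (log2 -0.86 ± 0.0494), and the RNA exonuclease ISG20 stood at 16.1, 15.3 and 16.2 CPM in shControl and at 5.18, 4.58 and 4.63 CPM in shRIPOR3 (log2 -1.72 ± 0.0746). All values of the knockdown were under those of the control in these genes, as in OASL (-1.58 ± 0.0935) and IFIT1 (-1.03 ± 0.0614). IFIT5 was the member that rose (0.32 ± 0.0478).

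The lowered interferon genes carry the interferon-stimulated response element, searched on both strands as TTTC, any 2 bases and TTTC again, in the same windows. It was found in 16 of 19 windows of the list (84.2%), against 3.65% of all 27305, and in all 11 lower genes with a window. The element is in capitals in the stretches below, which lie upstream of the start on the gene's strand; ISG20 carries it in the reverse orientation.
IFIT1, chr10:89392477-89392544: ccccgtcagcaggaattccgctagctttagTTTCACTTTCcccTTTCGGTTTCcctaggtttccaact
IFIT3, chr10:89327811-89327899: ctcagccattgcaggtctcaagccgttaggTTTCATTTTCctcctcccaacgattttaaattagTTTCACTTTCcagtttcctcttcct
ISG20, chr15:88638917-88638971: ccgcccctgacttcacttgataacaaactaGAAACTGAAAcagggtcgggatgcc
Not every gene with the element was lower, since 5 of the 16 windows belong to genes that did not pass or rose.

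Most genes of antigen presentation were lower. HLA-B stood at 62.8, 58.2 and 62.1 CPM in shControl and at 33.3, 28.3 and 33.3 CPM in shRIPOR3 (log2 -0.94 ± 0.0491), and the peptide-loading chaperone TAPBP fell by less (-0.44 ± 0.0473). The peptide pump subunit TAP2 (0.21 ± 0.0529) and the immunoproteasome subunit PSMB8 (0.19 ± 0.0493) were slightly higher. HLA genes differ between people and share sequence, so their counts depend on how reads were assigned. Of the 15 genes 9 were lower and 4 higher.

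Genes that NF-kB controls included steep losses at low levels. ICAM1, an adhesion molecule, stood at 4.92, 4.37 and 5.13 CPM in shControl and at 1.67, 2.09 and 1.98 CPM in shRIPOR3 (log2 -1.34 ± 0.122), TRAF1 stood at 2.95, 2.5 and 3.24 CPM in shControl and at 1.13, 1.27 and 1.12 CPM in shRIPOR3 (log2 -1.32 ± 0.138), and BCL3 stood at 1.51, 1.84 and 1.67 CPM in shControl and at 0.613, 0.569 and 0.585 CPM in shRIPOR3 (log2 -1.49 ± 0.171). The subunits RELB (-1.18 ± 0.143) and NFKB2 (-0.48 ± 0.0438) of the noncanonical arm were lower and NFKB1 was higher (0.34 ± 0.0671), as were the inhibitor TNFAIP3 (0.26 ± 0.0476) and SOD2 (0.26 ± 0.03802). Among cytokines IL1B stood at 17.2, 17.4 and 16.2 CPM in shControl and at 4.98, 5.83 and 5.41 CPM in shRIPOR3 (log2 -1.66 ± 0.06498), the death ligand TNFSF10 was lower (-1.65 ± 0.176), and IL24 rose from 0.877, 0.934 and 0.948 to 3.33, 3.74 and 3.35 CPM (log2 1.91 ± 0.1297). CSF1 was lower (-0.32 ± 0.0501) and IL11 higher (0.27 ± 0.0648).

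Most genes of the amino acid response were higher. ATF4 is a transcription factor made when amino acids run short or the integrated stress response is active, and its targets import amino acids, make serine and glycine and charge tRNAs. Of 40 genes 34 were higher and 2 lower, with a median log2 fold change of 0.48, against 30.7% higher over all genes. All 11 cytosolic tRNA synthetases tested rose, by a median of 0.58: the alanyl enzyme AARS stood at 238, 232 and 231 CPM in shControl and at 406, 406 and 415 CPM in shRIPOR3 (log2 0.81 ± 0.0357), and the tryptophanyl enzyme WARS stood at 107, 109 and 106 CPM in shControl and at 185, 188 and 179 CPM in shRIPOR3 (log2 0.78 ± 0.0345). PSAT1, of serine synthesis, stood at 59.7, 61.3 and 59.1 CPM in shControl and at 118, 119 and 122 CPM in shRIPOR3 (log2 0.996 ± 0.0365), and SLC3A2, the heavy chain of amino acid exchangers, stood at 187, 184 and 198 CPM in shControl and at 323, 322 and 316 CPM in shRIPOR3 (log2 0.76 ± 0.0369). The transporters SLC38A2 (-0.39 ± 0.0358) and SLC1A4 (-0.38 ± 0.0761) were the members that fell.

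The amino acid response element TGATGNAA was found on either strand in 11 of 33 promoter windows of this list (33.3%), against 3.67% of all windows, and all 11 genes were higher. Of all 33 genes with a window 28 were higher, so genes without the element rose too. In the 4 promoters shown, the match reads TTGCATCA or its reverse complement TGATGCAA on the gene's strand. They belong to the synthetase genes AARS1 (AARS in the table) and IARS1 (IARS, log2 0.58 ± 0.03505), the glutathione-degrading enzyme gene CHAC1 (0.52 ± 0.124) and the mitochondrial folate enzyme gene MTHFD1L (0.35 ± 0.0423).
AARS1, chr16:70289671-70289723: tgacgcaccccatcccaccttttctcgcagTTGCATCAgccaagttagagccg
IARS1, chr9:92293698-92293740: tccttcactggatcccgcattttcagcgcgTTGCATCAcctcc
CHAC1, chr15:40953232-40953284: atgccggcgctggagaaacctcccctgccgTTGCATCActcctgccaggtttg
MTHFD1L, chr6:150866327-150866379: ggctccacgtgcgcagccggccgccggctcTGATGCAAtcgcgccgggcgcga
These stretches lie within the first 239 bases upstream of the start.

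Genes for folding in the endoplasmic reticulum went both ways. Of 20 genes 7 were higher and 8 lower: the abundant chaperone HSP90B1 stood at 2184, 2201 and 2394 CPM in shControl and at 1474, 1560.3 and 1433 CPM in shRIPOR3 (log2 -0.60 ± 0.0418), the sensor ATF6 stood at 60.1, 62.5 and 59.3 CPM in shControl and at 36.4, 36.6 and 35.8 CPM in shRIPOR3 (log2 -0.74 ± 0.0389), and SDF2L1 rose (0.63 ± 0.0595). PDIA3 (-0.39 ± 0.0398) and EDEM1 (-0.57 ± 0.0498) were lower and the sensor ERN1 (0.60 ± 0.0755) and DNAJB11 (0.28 ± 0.0361) higher. The cytosolic chaperone list, which also holds HSF1 and the mitochondrial chaperones HSPD1 and HSPE1, leaned up, with 12 of 19 higher and 3 lower. The heat shock factor HSF1 stood at 63.01, 60.9 and 62.2 CPM in shControl and at 98.4, 94.1 and 96.8 CPM in shRIPOR3 (log2 0.64 ± 0.0491), the HSP90 partner FKBP4 stood at 291, 295 and 298 CPM in shControl and at 422, 424 and 423 CPM in shRIPOR3 (log2 0.52 ± 0.0347), and the small heat shock protein HSPB1 was lower (-0.27 ± 0.0516).

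**Figure D3:**
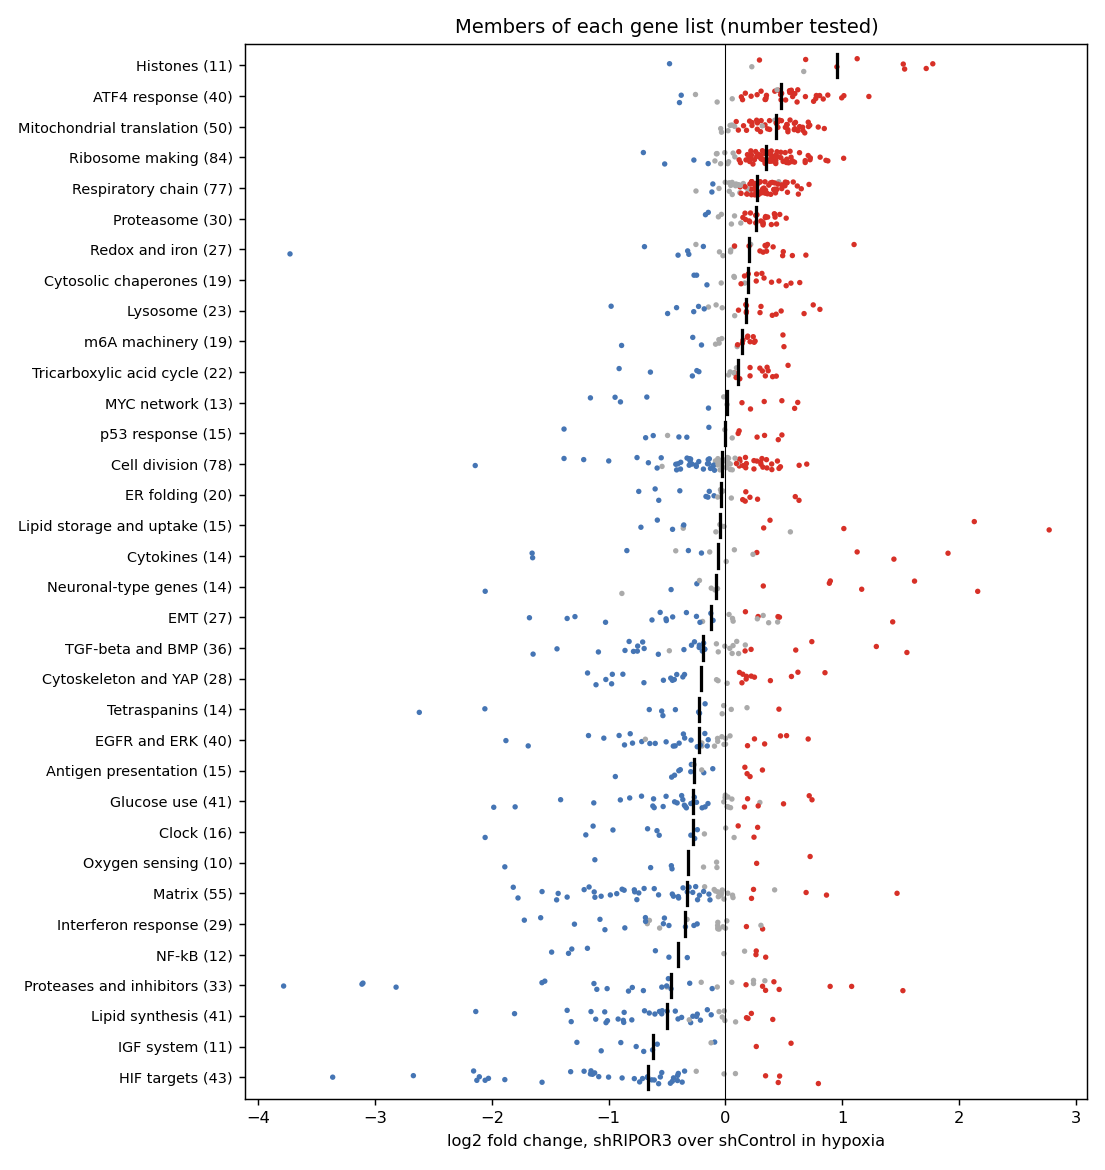
Log2 fold change of shRIPOR3 over shControl in hypoxia for each tested member of 34 gene lists (points, spread vertically within a row for visibility), red where higher and blue where lower at an adjusted p under 0.05, grey where neither, with the list median as a black bar; numbers in parentheses are members tested. HIF targets have the lowest median (-0.67) and histones the highest (0.95).

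Nuclear genes of the mitochondrion were higher in small, even steps. Of 77 genes of the respiratory chain list 57 rose and 2 fell (median 0.27), in complex I 28 of 37, in ATP synthase 10 of 15. This list includes the mitochondrial protease gene LONP1. CYC1, of complex III, stood at 83.7, 81.9 and 83.02 CPM in shControl and at 130.4, 121 and 131 CPM in shRIPOR3 (log2 0.62 ± 0.0376), NDUFB10, of complex I, stood at 104, 102 and 106 CPM in shControl and at 148, 149 and 155 CPM in shRIPOR3 (log2 0.53 ± 0.0356), and the ATP synthase ring subunit ATP5G1 stood at 31.5, 29.6 and 29.04 CPM in shControl and at 46.96, 45.5 and 45.7 CPM in shRIPOR3 (log2 0.62 ± 0.0414). Of 50 mitochondrial ribosomal proteins 42 rose and none fell (median 0.44), such as MRPL37 (73.3, 72.9 and 69.96 against 118, 121 and 114 CPM, log2 0.71 ± 0.0393) and MRPS26 (0.68 ± 0.0436). COX6C, of complex IV, was uneven between the knockdown replicates, at 452, 439 and 214 CPM, and did not pass (adjusted p = 0.154).

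In the tricarboxylic acid cycle 13 of 22 genes were higher and 5 lower. The transaminase GOT2 stood at 89.6, 84.5 and 82.6 CPM in shControl and at 126, 121 and 126 CPM in shRIPOR3 (log2 0.54 ± 0.0373), and the NAD-linked subunits IDH3A (0.40 ± 0.0386) and IDH3B (0.44 ± 0.0367) and MDH2 (0.34 ± 0.0351) rose. The NADP-linked isocitrate dehydrogenases fell, IDH2 from 29.1, 28.9 and 27.9 to 15.03, 14.9 and 15.7 CPM (log2 -0.91 ± 0.0525) and IDH1 by less (-0.28 ± 0.0482), together with pyruvate carboxylase PC (-0.64 ± 0.048) and OGDH (-0.24 ± 0.0403).

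Genes for making ribosomes rose. Of 33 biogenesis factors 27 were higher and 3 lower (median 0.49), and of 51 cytosolic ribosomal proteins 44 were higher and 1 lower (median 0.32). RRP9, of the small nucleolar machinery, stood at 59.1, 53.8 and 62.4 CPM in shControl and at 115, 115 and 123 CPM in shRIPOR3 (log2 1.01 ± 0.0482), RRS1 stood at 55.3, 51.9 and 59.7 CPM in shControl and at 103, 99.5 and 104 CPM in shRIPOR3 (log2 0.88 ± 0.0491), and the RNA polymerase I subunit POLR1B stood at 43.4, 44.6 and 43.2 CPM in shControl and at 72.4, 71.9 and 72.5 CPM in shRIPOR3 (log2 0.72 ± 0.0351). RPLP1 was the ribosomal protein gene that fell, from 522, 489 and 522 to 315, 305 and 322 CPM (log2 -0.70 ± 0.0388), and RRP1B fell among the factors (-0.52 ± 0.0426). RPL12 had an uneven control group, at 956, 903 and 499 CPM. Many ribosomal protein genes have processed pseudogenes that can take up reads.

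Of 13 genes of the MYC network 6 rose and 5 fell. MYC, a driver of ribosome genes, stood at 73.1, 75.4 and 77.02 CPM in shControl and at 114, 110.1 and 116 CPM in shRIPOR3 (log2 0.59 ± 0.0357), and its partner MAX was higher (0.48 ± 0.0519). Among the antagonists that compete for MAX, 4 were lower: MXI1 stood at 32.4, 36.3 and 34.1 CPM in shControl and at 14.97, 15.9 and 15.3 CPM in shRIPOR3 (log2 -1.16 ± 0.0525), and MXD4 stood at 34.3, 33.01 and 34.95 CPM in shControl and at 17.9, 16.6 and 18.4 CPM in shRIPOR3 (log2 -0.94 ± 0.06104), with MXD3 (-0.90 ± 0.06598) and MNT (-0.67 ± 0.0697) beside them. MLX was higher (0.33 ± 0.0359). Of 30 proteasome subunits 23 rose and 2 fell (median 0.27), such as PSMB3 (0.52 ± 0.0374) and PSMC4 (0.47 ± 0.0392).

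Of 78 cell division genes 24 rose and 31 fell, and the 5 inhibitors of cyclin-dependent kinases tested were all lower. Together with the D-type cyclins, which drive division, and the G-type cyclins, 7 of 9 were lower and 1 higher (median -0.76). CDKN1A (p21), the main p53-induced inhibitor, stood at 35.1, 31.5 and 31.8 CPM in shControl and at 11.9, 12.8 and 13.1 CPM in shRIPOR3 (log2 -1.38 ± 0.0538). CDKN2D (p19) stood at 64.8, 63.4 and 66.1 CPM in shControl and at 28.1, 27.6 and 28.02 CPM in shRIPOR3 (log2 -1.21 ± 0.0432), and CDKN2C (p18) stood at 30.03, 28.7 and 31.1 CPM in shControl and at 14.5, 14.9 and 15.6 CPM in shRIPOR3 (log2 -0.999 ± 0.0495). CCNG2, a cyclin linked to arrest, stood at 38.7, 40.3 and 44.4 CPM in shControl and at 9.49, 8.43 and 9.82 CPM in shRIPOR3 (log2 -2.14 ± 0.0627), the steepest fall of the list, and no replicates overlapped in any of these genes. Of 25 mitotic genes 15 fell and 5 rose (median -0.14), and CDC20, the activator of the anaphase-promoting complex, rose (69.4, 66.4 and 66.8 against 104, 105 and 105 CPM, log2 0.63 ± 0.0401). Replication genes rose in 13 of 31 and fell in 7, with cyclin E1 CCNE1 (0.70 ± 0.0458) and GINS4 (0.46 ± 0.0419) among the rises.

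The p53 list was even, with 6 of 15 genes higher and 6 lower. Besides CDKN1A, MDM2 (53.8, 56.4 and 52.9 against 32.3, 36.1 and 33.4 CPM, log2 -0.68 ± 0.0436), BBC3 (-0.62 ± 0.129) and SESN1 (-0.40 ± 0.0848) were lower, and GADD45A (0.34 ± 0.0497), GADD45B (0.48 ± 0.0518) and SESN2 (0.45 ± 0.05797) were higher. MDA-MB-231 cells are known to carry mutant p53. Of 11 histone genes 8 rose and 1 fell. The linker histone HIST1H1C stood at 37.1, 31.7 and 36.4 CPM in shControl and at 101, 99.05 and 105 CPM in shRIPOR3 (log2 1.53 ± 0.0477), and H1F0 (0.69 ± 0.0358) and HIST1H2AC (1.72 ± 0.08197) also rose. HIST1H2BK was lower (-0.48 ± 0.0899). Most clustered histone mRNAs end without poly(A) and resemble one another, so counts from an mRNA kit are uncertain for them.

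Antioxidant genes leaned up, while of 10 iron genes 5 were higher and 3 lower (median 0.08). Of 4 NADPH oxidase genes tested 2 were lower and none higher. Ferritin light chain, FTL, stood at 105, 107 and 104 CPM in shControl and at 233, 212 and 232 CPM in shRIPOR3 (log2 1.10 ± 0.0405), the quinone reductase NQO1 stood at 103, 101 and 103 CPM in shControl and at 142, 145 and 146 CPM in shRIPOR3 (log2 0.49 ± 0.0337), and the glutathione synthesis subunit GCLM rose by 0.50 ± 0.0444. Of 13 genes of the NRF2 group, which includes NRF2 itself (NFE2L2) and its inhibitor KEAP1, 9 were higher and 1 lower. The iron importer SLC11A2 was higher (0.69 ± 0.0675) and STEAP3 (-0.31 ± 0.0355) and HFE (-0.69 ± 0.124) lower, as was the oxidase subunit CYBA (-0.41 ± 0.0539). In lysosomes and autophagy 13 of 23 genes were higher and 6 lower, with SQSTM1 (p62) at 116, 111 and 120.4 and 194, 197 and 194 CPM (log2 0.75 ± 0.0365) and NEU1 at 0.81 ± 0.0474, while the master regulator TFEB fell (-0.98 ± 0.148), at 2.899, 2.801 and 2.901 CPM in shControl.

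Of 14 tetraspanins, membrane organisers at the cell surface, 9 were lower and 1 higher, among them CD82, TSPAN5 (-0.65 ± 0.0477), TSPAN15 (-0.54 ± 0.0627) and CD9 (-0.43 ± 0.0363). In the clock 10 of 16 genes were lower and 3 higher: PER3 stood at 9.82, 9.79 and 9.32 CPM in shControl and at 4.403, 4.61 and 4.22 CPM in shRIPOR3 (log2 -1.13 ± 0.0786), and the nuclear receptor RORA stood at 10.3, 9.52 and 9.46 CPM in shControl and at 4.98, 4.93 and 5.12 CPM in shRIPOR3 (log2 -0.96 ± 0.0801). Among neuronal-type genes L1CAM, an adhesion molecule of nerve and tumour cells, stood at 13.4, 13.5 and 13.8 CPM in shControl and at 3.07, 3.55 and 3.22 CPM in shRIPOR3 (log2 -2.06 ± 0.0891), whereas the granin-family genes SCG2 (1.17 ± 0.0817) and SCG5 (0.89 ± 0.0607) rose with DCLK1 and BDNF. In the m6A machinery 11 of 19 genes were higher and 3 lower, most by little: METTL16 (0.49 ± 0.0498) and the reader YTHDF1 (0.50 ± 0.0371) rose, and the reader IGF2BP3 stood at 74.02, 77.9 and 72.1 CPM in shControl and at 40.9, 40.3 and 39.7 CPM in shRIPOR3 (log2 -0.89 ± 0.0386).

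The same hairpins were also compared in normoxia. That comparison shares no library with the one in hypoxia. In it 7150 genes were called (45.7%), 3932 higher (25.1%) and 3218 lower (20.6%). The balance of directions reversed when only the 6 normoxia libraries were used (3269 higher, 3512 lower). It also reversed without hypoxia shControl replicate 2 (3487 and 3555) or replicate 3 (3539 and 3594). Of the genes higher in hypoxia 61.5% were also higher in normoxia, and these were 75.1% of the normoxia list. Of the genes lower in hypoxia 53.2% were also lower in normoxia, 80.8% of that list. Only 272 genes were called in opposite directions, 178 of them lower in hypoxia and higher in normoxia. Across the 15648 genes the 2 sets of log2 fold changes had a Pearson r of 0.693, which describes genes and not independent replicates. Of 987 genes changed at least 2-fold in hypoxia, 631 were called in the same direction in normoxia. RIPOR3 itself had 7, 3 and 7 counts in normoxia shControl and 0, 0 and 1 in normoxia shRIPOR3. Its fall there (log2 -3.74 ± 0.892, adjusted p = 0.0013) thus rests on few counts. The difference between its falls at the 2 oxygen levels did not pass (adjusted p = 0.326).

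**Figure D4:**
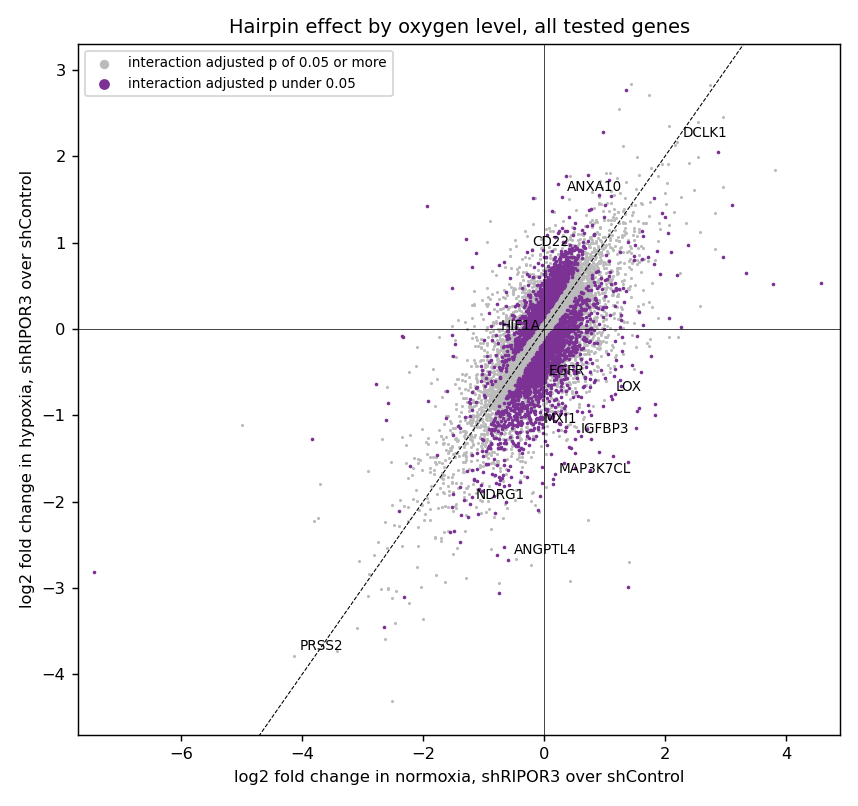
Log2 fold change of shRIPOR3 over shControl in normoxia (x axis) against that in hypoxia (y axis) for the 15648 tested genes; purple marks genes whose interaction of hairpin and oxygen level has an adjusted p under 0.05, and the dashed line is equality. PRSS2 and DCLK1 lie near the line, and IGFBP3, LOX and MAP3K7CL lie below 0 in hypoxia and above it in normoxia.

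The difference between the 2 hairpin effects, tested as an interaction, passed in 3624 genes (23.2%), 1705 with a higher value in hypoxia (10.9%) and 1919 with a lower one (12.3%). Higher values made up 47.0% of these calls, and they made up 58.7% without hypoxia shControl replicate 2 and 59.5% without hypoxia shControl replicate 3. With all libraries kept, the share was 54.3% with RLE factors, 51.2% with library totals, 51.0% with upper-quartile factors and 56.5% with DESeq2. The balance of directions thus depends on single libraries and on the scaling. Of 43 HIF targets 35 had a lower log2 fold change in hypoxia than in normoxia and none a higher one. In normoxia the same list had 19 lower and 8 higher genes and a median of -0.16, against -0.67 in hypoxia. NDRG1 had 170, 161 and 169 CPM in normoxia shControl and 71.7, 72.5 and 70.5 in normoxia shRIPOR3 (log2 -1.22 ± 0.0409), so it was lower at both oxygen levels and more so in hypoxia (interaction -0.81 ± 0.0542, adjusted p = 2e-10). CA9 was near 0 in normoxia, at 0.158, 0.1403 and 0.108 CPM, and its interaction did not pass (adjusted p = 0.517). Where the level in normoxia is this low, the effect there cannot be measured at this depth.

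Some genes changed sign with oxygen. IGFBP3 stood at 47.1, 46.2 and 45.8 CPM in normoxia shControl and 65.4, 68.3 and 64.7 in normoxia shRIPOR3 (log2 0.51 ± 0.0413), and at 178, 184 and 185 and 74.4, 75.3 and 76.4 in hypoxia (interaction -1.78 ± 0.0537, adjusted p = 6.63e-17). LOX, the lysyl oxidase that crosslinks collagen, was 3.88, 1.75 and 2.91 and 6.01, 6.31 and 6.86 CPM in normoxia and 24.4, 23.8 and 23.7 and 14.9, 13.3 and 13.6 in hypoxia (interaction -1.88 ± 0.162). The knockdown libraries were thus above control in normoxia and below it in hypoxia for both genes. Among genes that reached 5 CPM, ANGPTL4 had the lowest interaction (-2.08 ± 0.357), followed by AL365181.3 (-1.95 ± 0.236), MAP3K7CL (-1.89 ± 0.202), TCAF2 (-1.86 ± 0.447), LINC01293 (-1.70 ± 0.275) and HIF1A-AS2 (-1.57 ± 0.1395). In normoxia ANGPTL4 (0.831, 0.631 and 0.539 CPM in shControl, 0.33, 0.457 and 0.49 in shRIPOR3) was near the floor. So was TCAF2 (0.119, 0.14 and 0.467 against 0.33, 0.32 and 0.525 CPM). Their normoxia effects did not pass (adjusted p = 0.143 and 0.255), so the size of these interactions is uncertain. The TCAF2 call is lost without normoxia shRIPOR3 replicate 3 (adjusted p = 0.0628). HIF1A-AS2 overlaps HIF1A on the opposite strand, and since the strand setting of the counting is not given, reads of such pairs may be mixed.

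HIF1A fell in normoxia and did not pass in hypoxia. In normoxia it was 179.7, 179.7 and 180.2 CPM in shControl and 100.3, 102 and 107 in shRIPOR3 (log2 -0.80 ± 0.0387), against -0.07 in hypoxia (interaction 0.73 ± 0.0549, adjusted p = 1.49e-09). Among genes that reached 5 CPM, the highest interactions were those of AC217777.1 (3.37 ± 0.688), MIR210HG (2.56 ± 0.568), which had 0.0661, 0.0457 and 0.06998 CPM in normoxia shRIPOR3, and SERF1B (2.26 ± 0.682), which has a near-identical copy. Normoxia shControl was uneven in AC217777.1, at 8.46, 12.9 and 1.58 CPM, and in SERF1B, at 22.98, 79.5 and 8.51 CPM. SERF1B did not pass in hypoxia (-0.08 ± 0.478, adjusted p = 0.89). ANXA10 (1.24 ± 0.1497), CD22 (1.18 ± 0.111), MRM1 (0.92 ± 0.166), NOL6 (0.89 ± 0.0543) and SCG2 (0.88 ± 0.119) followed. NOL6, of ribosome assembly, stood at 113, 106 and 105 CPM in shControl and at 231, 219 and 229 CPM in shRIPOR3, and in normoxia 167, 158 and 164 and 180.2, 188 and 186 CPM, so that the hypoxia shControl group was the lowest of the 4.

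In the groups described above, single genes gave these interactions. EGFR fell in hypoxia and did not pass in normoxia (-0.02 ± 0.0379 there; interaction -0.58 ± 0.052), and ERRFI1 fell at both oxygen levels, more in hypoxia (-0.81 ± 0.03899 in normoxia; interaction -0.88 ± 0.0523). CCNG2 (-1.10 ± 0.1095 in normoxia; interaction -1.04 ± 0.132) and INSIG1 (-0.47 ± 0.0699; -0.88 ± 0.0862) also fell at both and more in hypoxia, and MXI1 did not pass in normoxia (-0.10 ± 0.0756; interaction -1.06 ± 0.0923). MMP1 rose more in normoxia, from 1054, 1025 and 1056 to 3872, 3749 and 3829 CPM (interaction -0.97 ± 0.0529), as did TNFAIP3 (1.18 ± 0.0663 in normoxia; interaction -0.91 ± 0.0821). Of 19 genes of the cytosolic chaperone list 14 had a higher log2 fold change in hypoxia than in normoxia and none a lower one. FKBP4 was an example (0.05 ± 0.0347 in normoxia, interaction 0.47 ± 0.049). The same held for 31 of 50 mitochondrial ribosomal proteins, 18 of 30 proteasome subunits and 23 of 33 ribosome biogenesis factors, with none lower. RRP9, one of these factors, had an interaction of 0.70 ± 0.06798. CDC20 rose in hypoxia and did not pass in normoxia (0.02 ± 0.0414; interaction 0.61 ± 0.0576).

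The ATF4 and interferon lists had near-equal medians at both oxygen levels. ATF4 genes were higher in 35 of 40 cases in normoxia (median 0.48) and in 34 in hypoxia (median 0.48), with 5 higher and 8 lower interactions. Interferon-stimulated genes were lower in 13 of 25 at both oxygen levels, with medians of -0.34 and -0.34, and with 5 higher and 3 lower interactions. CD82, DNM1, DCLK1 and BDNF had interactions that did not pass, with log2 fold changes in normoxia of -2.81 ± 0.132, -2.47 ± 0.1003, 2.20 ± 0.0949 and 1.52 ± 0.0723. A p that misses the threshold does not show that the effects are equal.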

How the data were processed

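Messenger RNA of 12 MDA-MB-231 libraries was measured, 3 for each of 2 hairpins at 2 oxygen levels, and the 6 hypoxia libraries were compared. The authors deposited raw counts per gene symbol. Per the submitters' processing notes, fastp 0.23.4, STAR 2.5.3a and featureCounts were used with GRCh38; neither annotation nor strand setting is named in those notes or the labels. The table holds 24641 symbols, 8 with no counts and 24 turned into dates (0.2% of counts). Positions came from GENCODE 29 (GRCh38) by symbol, with 24045 symbols matching 1 gene. Promoter windows came from RefSeq (GRCh38.p14).

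Counts were tested with edgeR 4.0.16 (TMM, filterByExpr, quasi-likelihood, 1 coefficient per group over 12 libraries, 8 residual degrees of freedom, biological coefficient of variation 3.745%) in R 4.3.3, with Benjamini-Hochberg adjustment over 15648 genes at 0.05. The steps were run on simulated data in which few genes changed. That run does not show how they perform when most genes differ. Levels are TMM-normalised CPM. Totals were 14750734 to 52526813 counts per library, so genes with few counts are measured less precisely. Samples were grouped by the labels. Figures used matplotlib.

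The 35 gene lists hold 1087 genes, 1074 of them in the table (43 under an older symbol). A gene may be in more than 1 list. The members and lists were chosen with earlier results of these data known. Named genes are RIPOR3 and METTL3, the 20 largest changes each way with at least 5 CPM and no overlap, the 8 largest interactions each way with at least 5 CPM, up to 4 called genes each way with the smallest p from each list, and any member of a list of 15 or fewer. BNIP3, IARS, MTHFD1L, CHAC1, IFIT1, RIPOR1, COX6C and RPL12 were named after their values were seen. Alternatives were other scaling factors, filters, DESeq2 1.42.0, thinning, a threshold of 0.01, a replicate block, only the libraries of 1 oxygen level, and leaving out each library. No library was left out of the reported values, and a few items are not reported here.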

Additional observations from a re-analysis of the deposited data

Results flagged for a closer look

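The hairpin's effect differed between hypoxia and normoxia in the genes below, by the interaction test of edgeR at an adjusted p under 0.05, and no explanation was tested. Values are the log2 fold change in hypoxia minus that in normoxia. Among genes with a lower log2 fold change in hypoxia than in normoxia were ANGPTL4 (-2.08), AL365181.3 (-1.95), MAP3K7CL (-1.89), LOX (-1.88), TCAF2 (-1.86), IGFBP3 (-1.78), LINC01293 (-1.70) and HIF1A-AS2 (-1.57). The same direction was found for MXI1 (-1.06), CCNG2 (-1.04), MMP1 (-0.97), TNFAIP3 (-0.91), INSIG1 (-0.88), ERRFI1 (-0.88), NDRG1 (-0.81) and EGFR (-0.58). ANGPTL4 and TCAF2 were near the floor in normoxia. Among genes with a higher log2 fold change in hypoxia than in normoxia were AC217777.1 (3.37), MIR210HG (2.56), SERF1B (2.26), ANXA10 (1.24), CD22 (1.18), MRM1 (0.92), NOL6 (0.89) and SCG2 (0.88). Normoxia shControl replicates were uneven in AC217777.1 (8.46, 12.9 and 1.58 CPM) and SERF1B (22.98, 79.5 and 8.51 CPM), and SERF1B did not pass in hypoxia (-0.08, adjusted p = 0.89). HIF1A (0.73), RRP9 (0.70), CDC20 (0.61) and FKBP4 (0.47) also had a higher log2 fold change in hypoxia than in normoxia. Groups of 3 libraries are too small for a test of single outlying samples.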

How the results depend on the processing

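The counts of calls over all genes kept within 1.5 times their value under every alternative run, with 1 exception. A threshold of 0.01 called 2185 interactions (1024 higher, 1161 lower). Of 4268 list counts under the alternatives 68 moved beyond 1.5 times. Of 2134 list medians 256 moved by at least the SD of that median over the 3 shRIPOR3 libraries. A further 7 list medians counted as sign changes and are given below. Leaving out 1 library at a time gave 8982 to 9878 calls in hypoxia (4456 to 4917 higher, 4523 to 4961 lower), 6286 to 7157 in normoxia (3372 to 3941 and 2858 to 3594) and 2993 to 3730 interactions (1409 to 2219 and 1394 to 1853), and the log2 fold change of RIPOR3 ran from -2.44 to -1.97. DESeq2 called 8811, 6464 and 3233 genes. With a replicate block 9694, 7119 and 3596 genes were called; same-numbered libraries did not deviate together (median r -0.000513 over 18 pairs), so the numbers do not pair them. RIPOR3 was not tested under a filter of 1 CPM or after thinning. The median of the neuronal-type list changed sign with a filter of 1 CPM (0.116) and after thinning (0.0207), and it ran from -0.0923 to 0.118 without 1 library, above 0 without hypoxia shControl replicate 3. After thinning RIPOR1 alone was left of the tested RIPOR family, and its value was 0.0113. Thinning also turned the TGF-beta target and inhibitor median to -0.121 and the fold change of SERF1B to 0.00977. The filter of 1 CPM turned the TGF-beta target and inhibitor median to -0.0682 and that of homologous recombination and mismatch repair to -0.000906. The cause of the other changes was not tested. Depth limits genes near RIPOR3's own level, and no second hairpin was measured.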
